A study of Mus musculus with 4 samples.

Results

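The 10 genes described here encode enzymes that write, keep and erase DNA methylation and their partner proteins: Dnmt1, Dnmt3a, Dnmt3b, Dnmt3l, Uhrf1, Tet1, Tet2, Tet3, Tdg and Mbd4. They were chosen by name, out of 21930 protein-coding genes of GENCODE release M21 with tested positions. Each gene was taken with 10000 bp on either side, and every row of the deposited site and region lists inside that window was read. A gene with no row has no listed difference.

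Methylation of cytosine in CpG dinucleotides is set by the de novo enzymes DNMT3A and DNMT3B, for which DNMT3L is a catalytically inactive partner in germ cells. After replication DNMT1 copies the mark to the new strand, guided there by UHRF1, which recognises hemimethylated CpGs. TET1, TET2 and TET3 oxidise methylcytosine, and the glycosylases TDG and MBD4 remove oxidised or deaminated bases so that repair can restore cytosine. In blood cells, Dnmt3a and Tet2 are the best known members of these families.

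The study compared untreated microglia, the macrophages of the brain, sorted from C57BL/6J mice aged 3 months. The wild-type group (WT) and the group lacking the transcription factor IRF8 (IRF8KO) had 2 samples each. IRF8 binds DNA in myeloid cells, often together with the ETS factor PU.1. Whole-genome bisulfite sequencing reads a methylation level at each cytosine, from 0 to 1. The labels do not say how the Irf8 allele was made, in which cells it is missing, or whether each sample came from a separate animal, so the spread behind the authors' p-values may be technical. The label of microglia rests on the sort, since the files hold no expression values against which markers could be read.

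Both lists are the authors' comparison of the groups, with a difference in level and its standard error (SE) and no value per sample. The levels of single replicates and the read depth behind a difference are therefore unknown. Replicate spread is given only as a dispersion per group at each site. Because the tables give the groups only numbers, with no genotype, they are called first and second here and their separate levels are not used. A difference is the first group minus the second, in units of methylation level, and a site is "higher" or "lower" as read in the first group. Over the whole genome 269406 sites were listed, 0.630% of the tested positions, and 18.7% of them had a false discovery rate (FDR) under 0.05. No listed site had a posterior probability under 0.95, while most had an FDR above 0.05, so a listed site need not pass that FDR threshold. The posterior is labelled as the probability of exceeding a threshold, whose size is not given, so smaller differences may be unlisted. Of all listed sites 61.9% were higher in the first group. The region list held 3389 regions, of which 1581 were lower.

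Dnmt3a carried most of what was listed at these genes, and all of it was lower in the first group. The 10 windows held 64 listed sites, with 14 higher and 50 lower (21.9% higher), and 34 of the 64 lay in Dnmt3a. With 50000 bp on either side the direction turned, with 64.2% of 232 sites higher. Sites with an FDR under 0.05 numbered 29, of which 27 were in Dnmt3a, 1 in Tet2 and 1 upstream of Tet1. That is 45.3% of the 64, against 18.7% of all listed sites, and it rests on Dnmt3a. The one listed region was also in Dnmt3a. Dnmt1 had 9 listed sites, Tet2 had 15, Tet3 had 3, and Tet1, Uhrf1 and Tdg had 1 each, while Dnmt3b, Dnmt3l and Mbd4 had none.

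Read against all protein-coding genes, these counts were not high. A listed site was present at 7 of the 10 genes, against 64.1% of all genes. A site with an FDR under 0.05 was present at 3 of 10, against 30.8%. A region was present at 1 of 10, against 9.2%. The median gene among the 10 had 1 listed site and the median of all genes was 2, although the windows of the 10 were longer, with a median of 65480 bp against 37433 bp. As a share of tested positions the 10 windows together had 0.294%. The share was 0.822% at Dnmt3a and 0.753% at Tet2, both above the upper quartile of all genes, 0.705%. Dnmt1 had 0.327%, above the median of all genes, 0.175%. Tdg had 0.104%, Tet3 0.0780%, Uhrf1 0.0681% and Tet1 0.0321%, all below that median. Neighbouring sites share fitted values, so that sites are not separate observations. Grouped into clusters of 1 direction within 500 bp, the 64 sites formed 11 clusters, of which 5 were higher and 6 lower. Of all 108828 clusters in the genome 65.3% were higher.

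**Figure D1:**
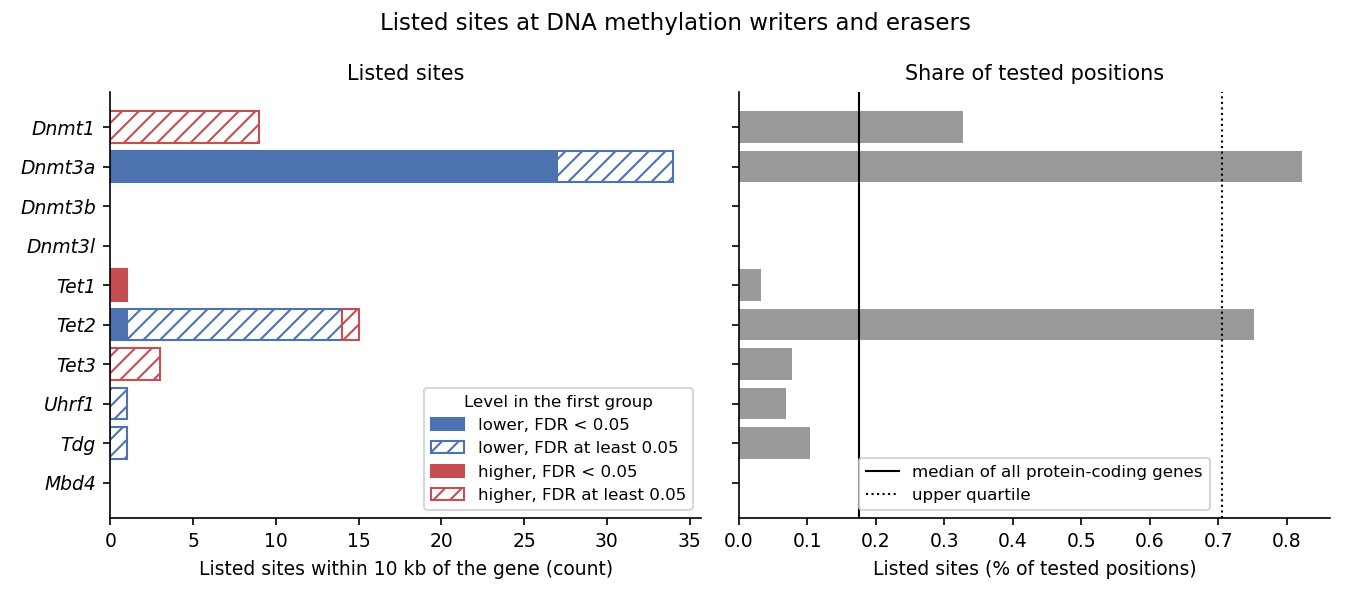
Left, the number of listed sites within 10000 bp of each gene, split by direction in the first group (red higher, blue lower) and by the authors' FDR (filled under 0.05, hatched otherwise). Right, the same sites as a percentage of tested positions, with the median (0.175%) and upper quartile (0.705%) of all protein-coding genes as lines. Dnmt3a, with 34 sites, and Tet2, with 15, stand above the upper quartile.

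Few promoter windows held a listed site, both here and over all genes. No windows away from promoters are set beside them, so that rarity particular to gene starts is not shown. Of 17 RefSeq promoter windows of the 10 genes (GRCm38.p6, from 250 bases before to 50 after a start), 0 held a listed site, and of 20150 such windows of protein-coding genes 0.476% did. These windows include dense CpG sequence, with 57 CpGs at Tet2, 47 in 1 of the windows of Dnmt3a and 30 at Dnmt3b, and also sparse sequence, with 3 to 6 CpGs at Dnmt3l. Over all coding transcripts and a wider promoter (1000 bp before to 500 bp after a start), 1 of the 64 sites (1.56%) fell in a promoter, at a short internal transcript of Tet2, against 2.19% of all listed sites.

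**Figure D2:**
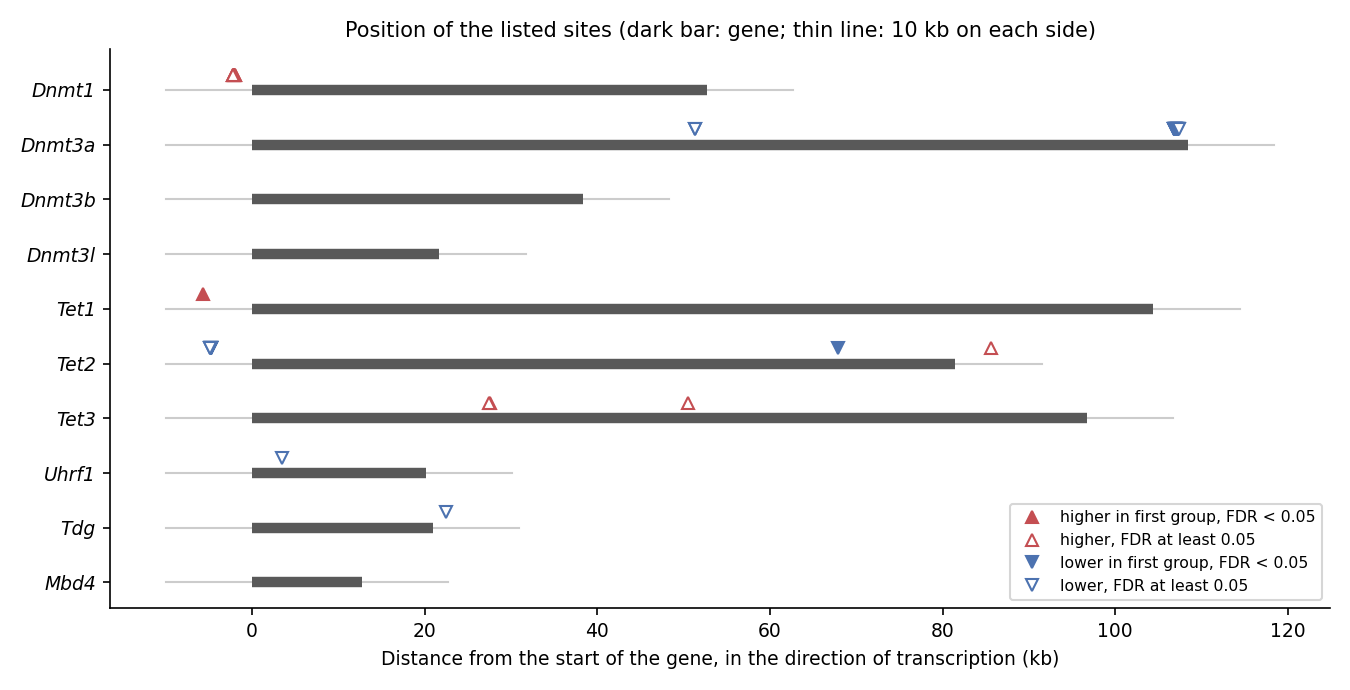
Each gene is drawn to scale from its start (0 kb) in the direction of transcription, with 10 kb on each side, and triangles mark listed sites (up and red for higher, down and blue for lower, filled for an FDR under 0.05). Most sites of Dnmt3a sit near its 3′ end, and those of Dnmt1 sit upstream of its start. The bars of Dnmt3b, Dnmt3l and Mbd4 carry none.

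Dnmt3a (ENSMUSG00000020661.15, chromosome 12, 3806007 to 3914443, plus strand) encodes the de novo methyltransferase that acts in differentiated cells. Its region spans 3912838 to 3913293, a length of 456 bp. It lies wholly in the 3′ UTR, in exon 23 of the long coding transcripts, from 5094 bp past the end of the coding sequence and up to 1150 bp before the end of the gene. A shorter transcript that starts later carries it in exon 19, and one with an earlier 3′ end stops 198 bp past it. In the authors' deposited table its mean level was lower in the first group, with a difference of -0.483 over 29 cytosines. The median absolute difference over all regions was 0.405.

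The fitted differences form a single trough, nearly flat over its middle. Together with 3 listed sites just past its end, the region holds 32 listed sites over 524 bp. They share 14 fitted differences, so that neighbouring sites are not separate readings. Their row numbers run without a gap, so that each of the 32 positions tested in that span was listed. At the first site, 3912838, the authors' deposited table has a difference of -0.410 (SE 0.081). The difference grew to -0.518 (SE 0.092) at 3913061 and shrank to -0.279 (SE 0.107) at the last site, 3913361, in the authors' deposited table. The first 27 sites had an FDR under 0.05 and the last 5 did not. The smallest FDR of the 27 was 8.7e-05.

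Sequences from the RefSeq genome (GRCm38.p6, plus strand) show what was read there, with listed positions in capitals. The first stretch opens the region, the second lies where the difference was -0.500 or -0.499, the third holds the largest difference, and the fourth holds the site with the smallest p.
chr12:3912836-3912865: agCgatttcaCgtgttttagctgagacatC
chr12:3912970-3912999: gacccCGgtggcagagCGctttgactccac
chr12:3913047-3913076: ccctggtcctctttCGgttcctcttcctag
chr12:3913213-3913242: ttctgggacagccaGgaggggtgtgggggg
Of the 29 listed positions in the region, 28 lie within a reference CpG. They cover all 16 reference CpGs of the region, 12 of them on both strands. The exception is the last stretch, at 3913227, where the capital G follows an A and is soft-masked as repeat. This site off a CpG had the smallest p of the gene, 2.01e-08 in the authors' deposited table. On a reference CpG the smallest was 2.11e-08, at 3913061 in the authors' deposited table. At 3913227 the dispersions given for both groups, 0.0571 and 0.0558, are values that recur through the list. At 3913061 this holds for the second group only, with 0.0598 in the first. Where such recurring values are left out for either group, 23 sites of Dnmt3a have an FDR under 0.05. The sites of Tet1 and Tet2 under that threshold are then both lost. Among sites of Dnmt3a under it, the dispersion reached 0.934 in the first group, at 3912865, and 0.450 in the second, at 3913114. At most of them neither group exceeded 0.103.

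The region holds a match to the ETS-IRF composite element, the motif that PU.1 and IRF8 bind together. The CpG in it had the largest difference, but its lead over neighbouring sites was smaller than the SE. Sites from 3912922 to 3913227 had differences between -0.499 and -0.518, with an SE of 0.090 to 0.116. The element was searched on both strands as GGAA, any 2 bases, then GAAA. The region holds 1 match, from 3913058 to 3913067 on the minus strand, shown here 5′ to 3′ on that strand with its letters in capitals.
chr12:3913048-3913077 (minus): gctaggaagaGGAACCGAAAgaggaccagg
The C and the G of the CpG in the match are both listed sites. Of 1581 regions lower in the first group 279 (17.6%) hold a match, as do 39 of 1808 higher regions (2.16%) and 9 of the 91 regions whose midpoint lies in a 3′ UTR. Over all 3389 regions the share was 9.38%. Regions vary in length, with a median of 199 bp, so these shares are not matched for length. Among 256404 windows of 456 bp along chromosome 12 the share was 4.86%. The related element GAAA, any 2 bases, then GAAA, which IRF factors bind without an ETS partner, has no match in the region. The next listed CpG, at 3913113, lies outside the match and had nearly the same difference, -0.507 in the authors' deposited table.

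**Figure D3:**
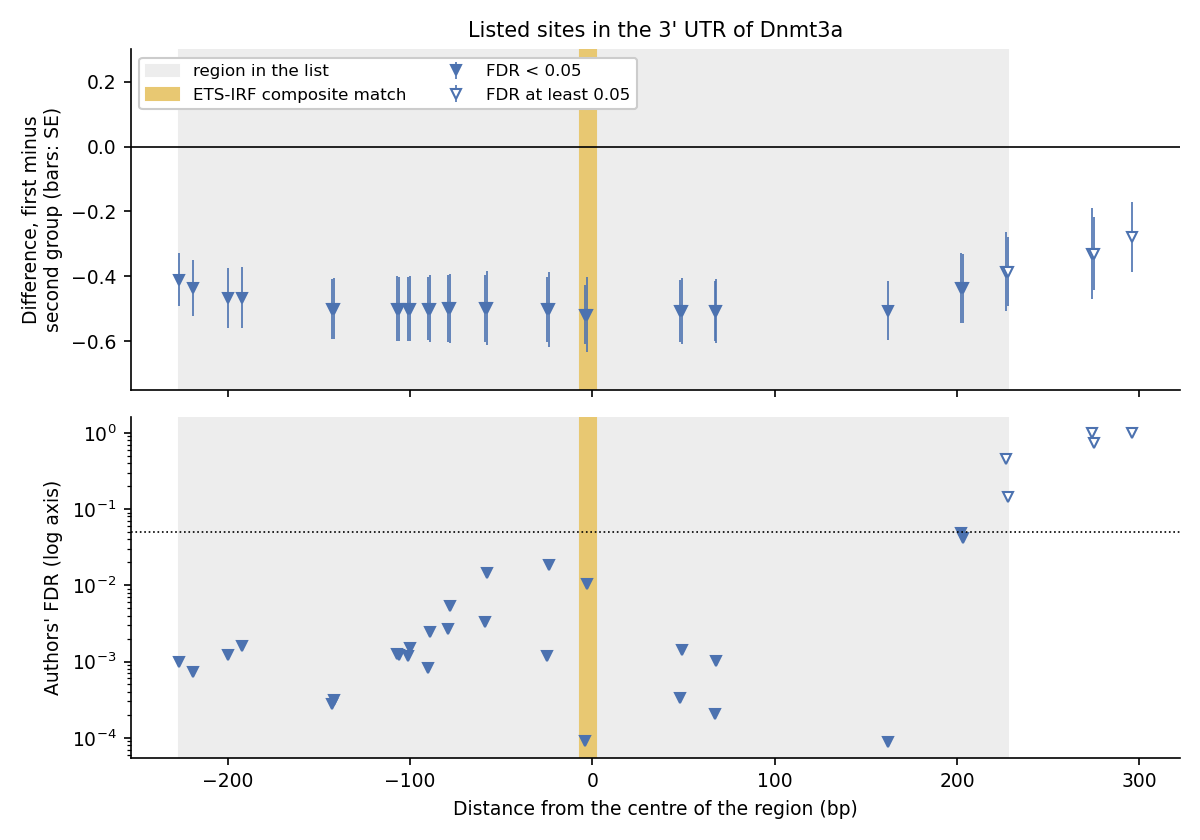
Top, the authors' difference in methylation level (first minus second group, bars for the SE, filled for an FDR under 0.05) at the 32 listed sites in the 3′ UTR of Dnmt3a, against distance in bp from the centre of the region (grey band), and bottom, the FDR of the same sites on a log axis with 0.05 dotted. The difference is lowest, at -0.518, in the ETS-IRF composite match (yellow band), but by less than the SE. Below the dotted line lie 27 sites.

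Among all regions the one in Dnmt3a ranked high in size, though many ranked above it. It ranked 212 of 3389 by the absolute value of the authors' area score, and 115 among the 1581 lower regions. By absolute difference it ranked 562, and by number of cytosines 254, where the median region had 9. Regions in a 3′ UTR made up 91 of 3389 (2.69%), with no share of tested positions in 3′ UTRs to set beside it. The larger part of the 91 were higher in the first group (55 against 36), as were 1808 of all 3389 regions. The region in Dnmt3a ranked 11 of these 91 by area score. As many sites with an FDR under 0.05 as at Dnmt3a, or more, were found at 1.08% of all protein-coding genes. That share compares counts per window, and the window of Dnmt3a is 128437 bp against a median of 37433 bp.

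Outside its 3′ UTR, Dnmt3a had 2 listed sites, 2 bp apart in an intron (3857352 and 3857354) and 55484 bp before the region. In the authors' deposited table both had a difference of -0.246 (SE 0.080 and 0.079). Neither lay on a reference CpG, and their FDR was 0.601 and 0.556. They lay 3667 bp or more from the nearest start of a coding transcript.

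Dnmt1 (ENSMUSG00000004099.16, chromosome 9, 20907209 to 20959888, minus strand), the maintenance methyltransferase, had listed sites in the other direction only. Its 9 listed sites formed 1 cluster from 20961905 to 20962103, between 2017 and 2215 bp upstream of the gene, and 0 lay in the gene. The cluster is printed with 8 bases on either side and listed positions in capitals, to show the few CpGs that carry it.
chr9:20961897-20962111: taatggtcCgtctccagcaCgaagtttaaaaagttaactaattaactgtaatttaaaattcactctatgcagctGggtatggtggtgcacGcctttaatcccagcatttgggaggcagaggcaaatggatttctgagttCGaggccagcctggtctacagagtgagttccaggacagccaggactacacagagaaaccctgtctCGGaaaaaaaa
In the authors' deposited table the differences ranged from 0.286 to 0.328 (SE 0.095 to 0.112). All 9 were higher in the first group and 0 had an FDR under 0.05. The smallest FDR was 0.257, and the largest unadjusted p was 0.00989. Of the 9 positions 7 lie on a CpG, a share like the 78.0% of all listed sites, and they cover 5 different CpGs. Soft-masked repeat in the RefSeq genome covers 7 of the 9 positions, against 24.4% of all listed sites. Neither motif searched at Dnmt3a matched the span. The cluster is also nearer to another gene, since the annotated 3′ end of S1pr2, a sphingosine phosphate receptor gene, is 258 bp away.

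Tet2 (ENSMUSG00000040943.12, chromosome 3, 133463679 to 133545139, minus strand) encodes a dioxygenase that is often mutated in clonal blood disorders. It had 15 listed sites in 3 clusters. The largest held 13 sites from 133549857 to 133549968, between 4718 and 4829 bp upstream of the gene, all lower in the first group. The span lies in an intron of the antisense transcript Gm42567. Its sequence shows 6 CpGs, each listed on both strands, and 1 listed G off a CpG.
chr3:133549849-133549976: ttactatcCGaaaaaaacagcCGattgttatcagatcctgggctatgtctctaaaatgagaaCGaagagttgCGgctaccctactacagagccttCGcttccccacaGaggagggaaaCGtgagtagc
In the authors' deposited table all 13 sites shared 1 fitted difference, -0.348. The SE ranged from 0.094 to 0.115 and the FDR from 0.131 to 0.626. The 13 sites are thus 1 fitted value read at 13 positions, and every position tested in the span was listed. None of these sites was soft-masked as repeat, and neither motif searched at Dnmt3a matched the span.

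The Tet2 site with an FDR under 0.05 stood alone inside the gene, at 133477207. The authors' deposited table puts the difference at -0.233 (SE 0.056, FDR 0.0300). It lies on a CpG in an intron of the long coding transcripts, and 637 bp before the start of a short one. In a window of 200 bp around it the ETS-IRF composite element had 1 match, 22 bp away, and 2.12% of 584608 windows of 200 bp along chromosome 12 hold one. The remaining site, 4186 bp past the end of the gene and off a CpG, was higher by 0.258 (SE 0.085, FDR 0.633) in the authors' deposited table. Tet2 therefore had sites in both directions, and the only one past the threshold was lower.

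**Figure D4:**
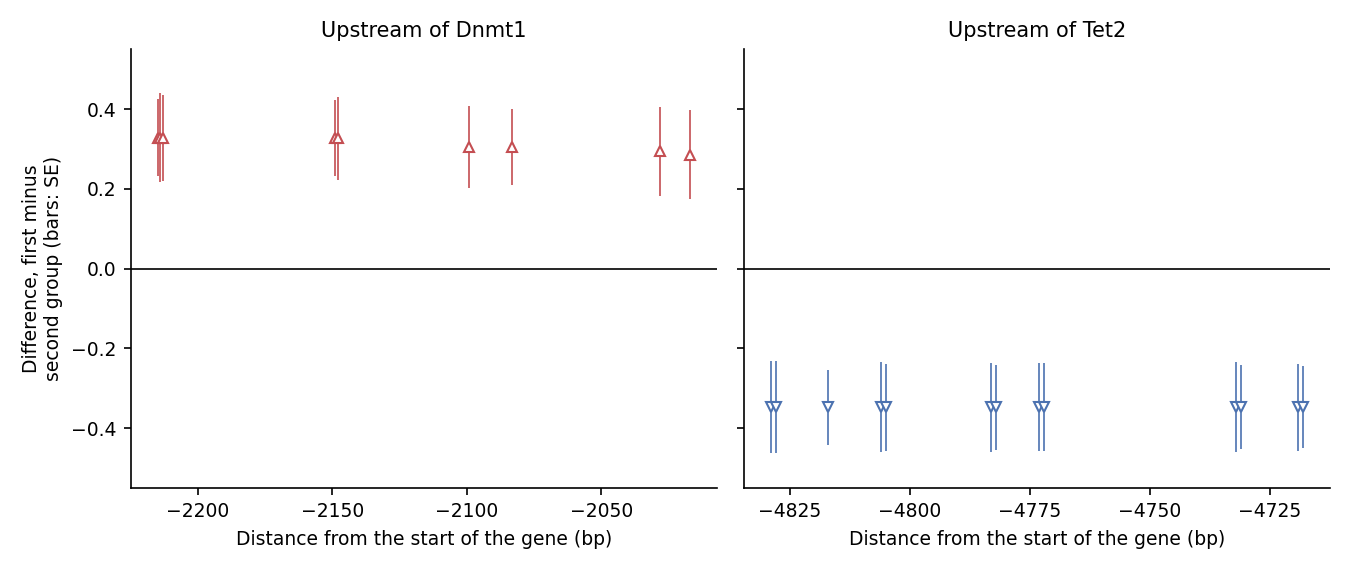
The authors' difference in methylation level (first minus second group, bars for the SE, open symbols for an FDR of at least 0.05) at the clusters upstream of Dnmt1 (left) and Tet2 (right), against distance in bp from the start of the gene. The 9 sites of Dnmt1 lie above 0, from 0.286 to 0.328, and the 13 sites of Tet2 lie flat at -0.348.

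Tet1 (ENSMUSG00000047146.17, chromosome 10, 62804570 to 62908996, minus strand), another dioxygenase, had 1 listed site, 5692 bp upstream of the gene at 62914688. The authors' deposited table puts the difference at 0.180 (SE 0.042, FDR 0.0229), the smallest in size of the 64 sites. This was the only site of the 10 genes that was higher with an FDR under 0.05. A window of 200 bp around it held no match to either motif. It is a G that follows an A and not a CpG, as the capital shows.
chr10:62914674-62914703: gtggcttggcttcaGgaggcagcctcttca

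Tet3 (ENSMUSG00000034832.15, chromosome 6, 83362373 to 83459084, minus strand), the third dioxygenase, had 3 listed sites in introns, all on CpGs and all higher in the first group. The pair at 83431566 and 83431642 shared 1 fitted difference of 0.229 (SE 0.076, FDR 0.675) in the authors' deposited table. At 83408564 the authors' deposited table puts the difference at 0.315 (SE 0.121), with an FDR of 1.

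Uhrf1 (ENSMUSG00000001228.14, chromosome 17, 56303321 to 56323486, plus strand), the partner of DNMT1, had 1 listed site, in an intron at 56306780. The difference there was -0.252 (SE 0.073, FDR 0.254) in the authors' deposited table. Tdg (ENSMUSG00000034674.18, chromosome 10, 82629828 to 82650799, plus strand), the thymine DNA glycosylase, had 1 listed site 1537 bp past its end, at 82652336. Its difference was -0.248 (SE 0.082, FDR 0.624) in the authors' deposited table. That position lies in an intron of Glt8d2, which overlaps the end of Tdg. Neither site is on a reference CpG. Of the 6 sites of the 10 genes that formed a cluster alone, 4 were off a CpG.

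Nothing was listed at Dnmt3b (ENSMUSG00000027478.15, chromosome 2, 153649450 to 153687730), at Dnmt3l (ENSMUSG00000000730.13, chromosome 10, 78041947 to 78063622) or at Mbd4 (ENSMUSG00000030322.12, chromosome 6, 115840697 to 115853371). Positions were tested there: an estimated 1546 in the window of Dnmt3b, 1312 in that of Dnmt3l and 639 in that of Mbd4. Between the nearest listed sites on either side lay 3165, 1755 and 820 tested positions without a listed site. A difference below the threshold of the list cannot be read from these files. Distance to the nearest differential region was also read, with no such distance over all genes to set beside it. The nearest lay 18802 bp from Tet3, with a difference of 0.474, and 43864 bp from Mbd4, with 0.401. For the other 7 genes without a region the distance was between 74420 bp at Dnmt3b and 1417881 bp at Tet1.

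Of 32 further genes that read, repair or assist DNA methylation (chosen by function), 20 (62.5%) had a listed site, 10 (31.2%) had a site with an FDR under 0.05 and 2 (6.25%) had a region, near the shares of all genes given above. The median was 1 listed site per gene. An FDR under 0.05 was given for 20 sites, with 13 higher (65.0%) and 7 lower, against 58.1% higher among all such sites, and 7 of the 13 were at Idh1. The 2 genes with a region were Idh1 and Kdm2b, and all 3 of their regions were higher in the first group.

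Idh1 (ENSMUSG00000025950.16, chromosome 1, 65158616 to 65186500, minus strand) encodes the cytosolic isocitrate dehydrogenase that makes the TET cofactor 2-oxoglutarate. Its region, in an intron from 65177108 to 65177198, had 9 cytosines, 8 of them on 4 CpGs and 1 off a CpG. In the authors' deposited table its difference was 0.466. Of its 9 sites, 6 had an FDR under 0.05, and all 9 shared 1 fitted difference. Listed positions are in capitals.
chr1:65177108-65177198: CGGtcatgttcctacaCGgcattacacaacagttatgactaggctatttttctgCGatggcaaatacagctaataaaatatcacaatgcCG

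Kdm2b (ENSMUSG00000029475.17, chromosome 5, 122870665 to 122989823, minus strand) encodes a histone demethylase that binds unmethylated CpG islands. It had 71 listed sites in 8 clusters, 36 higher and 35 lower, and 0 with an FDR under 0.05 (smallest 0.0695). Its regions lie in an intron, from 122951112 to 122951169 and from 122951230 to 122951343. The authors' deposited table gives differences of 0.327 over 5 cytosines and 0.325 over 7. Neither held a site with an FDR under 0.05. None of the 3 regions at Idh1 and Kdm2b matched the ETS-IRF composite element.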

How the data were processed

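Whole-genome bisulfite libraries were made from DNA of 40000 sorted cells (50 ng, 8 PCR cycles, paired reads of 75 bp), per the labels' protocols. Bismark, Trim Galore and mm10 are named in the submitters' processing notes. The comparison tool was not given in the sources used here. Per the file headers, the deposited site table holds a difference in methylation level with its standard error, a test statistic, dispersions, a p-value with its FDR and a posterior probability. The deposited region table holds length, number of cytosines, the mean difference and an area score, per the file headers. Differences are in units of methylation level and the posterior is a probability, while the test statistic and area are the authors' own scores. The columns with a level per group match no genotype and served only to check the sign of the difference, which was against first minus second at 0 sites and 0 regions. The number of columns with values per sample left unused was 0, because neither table has any.

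The members and lists were chosen with earlier results of these data known. The text names all 10 members. Those with a region or an FDR under 0.05 are described in full, and of 32 other pathway genes those with a region are named. Dnmt1, Tet3, Uhrf1 and Tdg got more detail than this rule asks. Rows were assigned to genes of GENCODE M21 (GRCm38) plus 10000 bp. The build was checked: 78.0% of listed sites lay on a reference CpG, and 1.71% after a shift of 100 bp. The row numbers, which follow position and reach 42734461, served as an index of tested positions and were interpolated at window edges. The counting and interpolation steps were tested on simulated positions spread evenly at random. Listed sites here are clustered and can lie far apart, which that test did not cover. Those flanking the window of Uhrf1 lie 281678 and 140792 bp from the gene. Clusters join sites of 1 direction within 500 bp. Repeats are the soft-masked bases of the RefSeq genome.

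All p-values are the authors'. Permuting 2 against 2 samples exactly, two-sided, gives no p below 0.333. Depth is unknown, so no interval was computed for a level. Python 3.11.15, pandas 2.3.3 and pysam 0.24.0 were used.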

Additional observations from a re-analysis of the deposited data

How the results depend on the processing

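No paired analysis was possible because only fitted levels of whole groups were deposited. A coverage minimum and leaving out replicates could not be run either. Of 64 alternatives, 45 left a count within 1.5 times or a share within its 95% binomial (Clopper-Pearson) interval, which covers counting error only. The settings that count each CpG once, leave out the Dnmt3a region or leave out repeats were chosen after seeing the data. The count of 29 sites with an FDR under 0.05 fell to 9 under 0.001, to 3 clusters, and to 16 with each reference CpG counted once. The 64 listed sites became 11 clusters, 33 CpGs, and 39 sites in gene bodies alone. Within 50000 bp there were 232 listed sites, 65 of them with an FDR under 0.05, and 5 regions at 3 genes. Sites higher in the first group, 21.9% of those listed, reversed to 64.2% within 50000 bp, and the cause was not tested. That share was 11.1% with own dispersions, 7.69% in gene bodies, 9.26% where the member is the nearest gene (which drops the Dnmt1 cluster), 45.5% over clusters and 40.0% without the sites of the Dnmt3a region. Of the settings run, the 50000 bp window alone turned the direction. With tested positions counted from the first to the last listed site alone, the listed share was 75% at Dnmt1, 1.83% at Dnmt3a and 0.501% at Tet3, because that span leaves out tested positions of the window. The region in Dnmt3a was kept with at least 10 cytosines, at least 3 reference CpGs and a site past the threshold inside.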
